A study of Mus musculus with 6 samples.

Results

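The expression of 10 genes of the pituitary blood vessels was followed, 9 of endothelial cells (Pecam1, Cdh5, Kdr, Tek, Tie1, Plvap, Emcn, Flt1 and Esam) and Rgs5 of pericytes, the contractile cells that wrap small vessels. Their probes were taken as the array probes whose listed transcript is a RefSeq transcript of 1 of these genes, and 12 of the 55681 probes on the array met that rule. Kdr and Plvap had 2 probes each and the other genes 1. RNA from whole pituitaries of virgin C57BL6 females aged 8 weeks was hybridised to 6 Agilent arrays in 1 colour, 3 with RNA of mice with both Jmjd2a alleles intact (Jmjd2a+/+, WT) and 3 with RNA of littermates null for it (Jmjd2a-/-, KO), each from a separate animal. Jmjd2a, now called Kdm4a, encodes a histone lysine demethylase. All 6 females had been exposed to soiled bedding of a stud male, which activates the oestrous cycle, and were killed 24 h later. Neither the labels nor the file headers say how the null allele was built or in which cells it acts. The comparison asks how vascular transcripts of the gland differ between the genotypes.

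Anterior pituitary cells release hormones into a dense bed of capillaries that is fed from the hypothalamus through portal vessels. The endothelium of these capillaries is fenestrated, with pores closed by diaphragms built of the protein that Plvap encodes. Vascular endothelial growth factor (VEGF) acts through the receptors of Kdr and Flt1 and maintains the fenestrae. Angiopoietins act through the receptor of Tek, with Tie1 as its partner, and pericytes and endothelial cells stabilise each other. In a whole gland, fewer vascular cells and less RNA per vascular cell cannot be told apart.

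Promoter sequences are shown for the pair of VEGF receptor genes, and for Rgs5, which had the highest fold change of the 10. RefSeq promoter windows of GRCm38.p6, running from 250 bases before to 50 bases after a transcript start, were matched for 6 of the 10 genes (Kdr, Tek, Tie1, Emcn, Flt1 and Rgs5). The windows lie at chr5:75978406-75978705 on the minus strand (Kdr), chr5:147725962-147726261 on the minus strand (Flt1) and chr1:169655251-169655550 on the plus strand (Rgs5). Each is printed 5′ to 3′ along the gene, and capitals mark GGAA or its reverse complement TTCC, the letters at the core of sites for ETS transcription factors, a family that endothelial genes commonly rely on.
Kdr: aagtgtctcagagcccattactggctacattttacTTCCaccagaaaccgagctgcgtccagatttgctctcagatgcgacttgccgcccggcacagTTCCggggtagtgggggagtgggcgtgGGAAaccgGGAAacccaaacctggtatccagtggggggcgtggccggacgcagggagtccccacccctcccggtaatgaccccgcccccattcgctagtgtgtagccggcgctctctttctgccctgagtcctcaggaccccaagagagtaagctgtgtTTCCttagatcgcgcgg
Flt1: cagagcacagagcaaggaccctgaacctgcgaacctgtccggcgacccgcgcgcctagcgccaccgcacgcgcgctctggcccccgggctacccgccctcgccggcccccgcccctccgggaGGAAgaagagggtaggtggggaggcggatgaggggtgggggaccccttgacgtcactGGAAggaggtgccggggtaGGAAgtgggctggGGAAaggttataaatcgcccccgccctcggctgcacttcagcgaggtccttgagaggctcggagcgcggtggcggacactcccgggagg
Rgs5: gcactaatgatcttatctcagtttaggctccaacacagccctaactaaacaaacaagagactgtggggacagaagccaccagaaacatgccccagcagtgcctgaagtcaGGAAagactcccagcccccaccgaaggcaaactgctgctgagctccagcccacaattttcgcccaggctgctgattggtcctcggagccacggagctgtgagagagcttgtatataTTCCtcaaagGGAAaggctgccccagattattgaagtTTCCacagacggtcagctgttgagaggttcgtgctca
The motif GGAA was searched on both strands, and 96.0% of the 32851 promoter windows of the same length hold it, with a median of 3 matches. The 6 vascular windows held 5 (Kdr), 2 (Tek), 9 (Tie1), 6 (Emcn), 4 (Flt1) and 4 (Rgs5). A longer form, GGAAGT, which overlaps GGAA, was present in Kdr, Tie1 and Flt1 and in 23.8% of all windows. The GC box GGGCGG, searched on both strands, had 2 matches in Kdr and 3 in Flt1, and 35.7% of all windows hold it. The letters TATAAA, searched in the same way, occurred in Flt1 and in 13.6% of all windows. Bases G and C made up 60.7% of the Kdr window, 70.7% of the Flt1 window and 52.3% of the Rgs5 window, against a median of 52.7%. These matches describe letters in the windows and are not evidence of bound sites.

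Every one of the 12 probes was well above background on all 6 arrays, and none was saturated. All levels below are log2 signals relative to the 75th percentile of the same array, and fold changes are KO over WT on the log2 scale with their standard error from limma, n = 3 arrays per group. That percentile ran from 170 (WT replicate 1) to 311 intensity units (WT replicate 2), and between 34636 and 40569 probes of an array were well above background. The number of arrays and the spread between animals limit the precision of these values. All 9 hormone-cell and pituitary lineage genes and all 5 posterior lobe genes passed the filter on dim probes. So did 36738 of the 55681 probes on the array, so passing it does not test the whole-gland label. Kdm4a itself read 1.97 in WT and 1.35 in KO, a log2 fold change of -0.62 ± 0.14 (adjusted p = 0.266 with each probe tested alone), with no overlap between the groups. Its probe remained measurable in KO, and whether it lies in the deleted part cannot be told from the labels.

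No vascular gene passed the test. At an adjusted p under 0.05 in limma, 0 of the 10 were called, and 0 of the 26889 genes and features tested were called (0%). At an adjusted p under 0.1 the count was 0 of the 10, against 0.0558% of all tested. The 10 adjusted p-values ran from 0.369 to 0.992. At an unadjusted p under 0.05 there was 1 of the 10, Rgs5, against 12.8% of all tested (3443 of 26889). By the brightest probe of each gene, the 3 KO arrays lay wholly above the 3 WT arrays for Rgs5 alone, where 7.23% of all tested did so, and wholly below for none of the 10, where 13.4% did so. The log2 fold changes of the 10 ran from -0.36 to 0.62 with a median of 0.09, beside a median of -0.07 over all tested. Of the 10, 8 were above 0, where 39.3% of all tested were, and 9 were above the median of all tested. The count above 0 was 7 with normexp background correction or the authors' value table, and 9 after quantile normalization or median centring. The median of all tested was -0.10, -0.01, 0.01 and 0.09 in these settings in turn, so the share of 39.3% does not carry over to them.

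**Figure D1:**
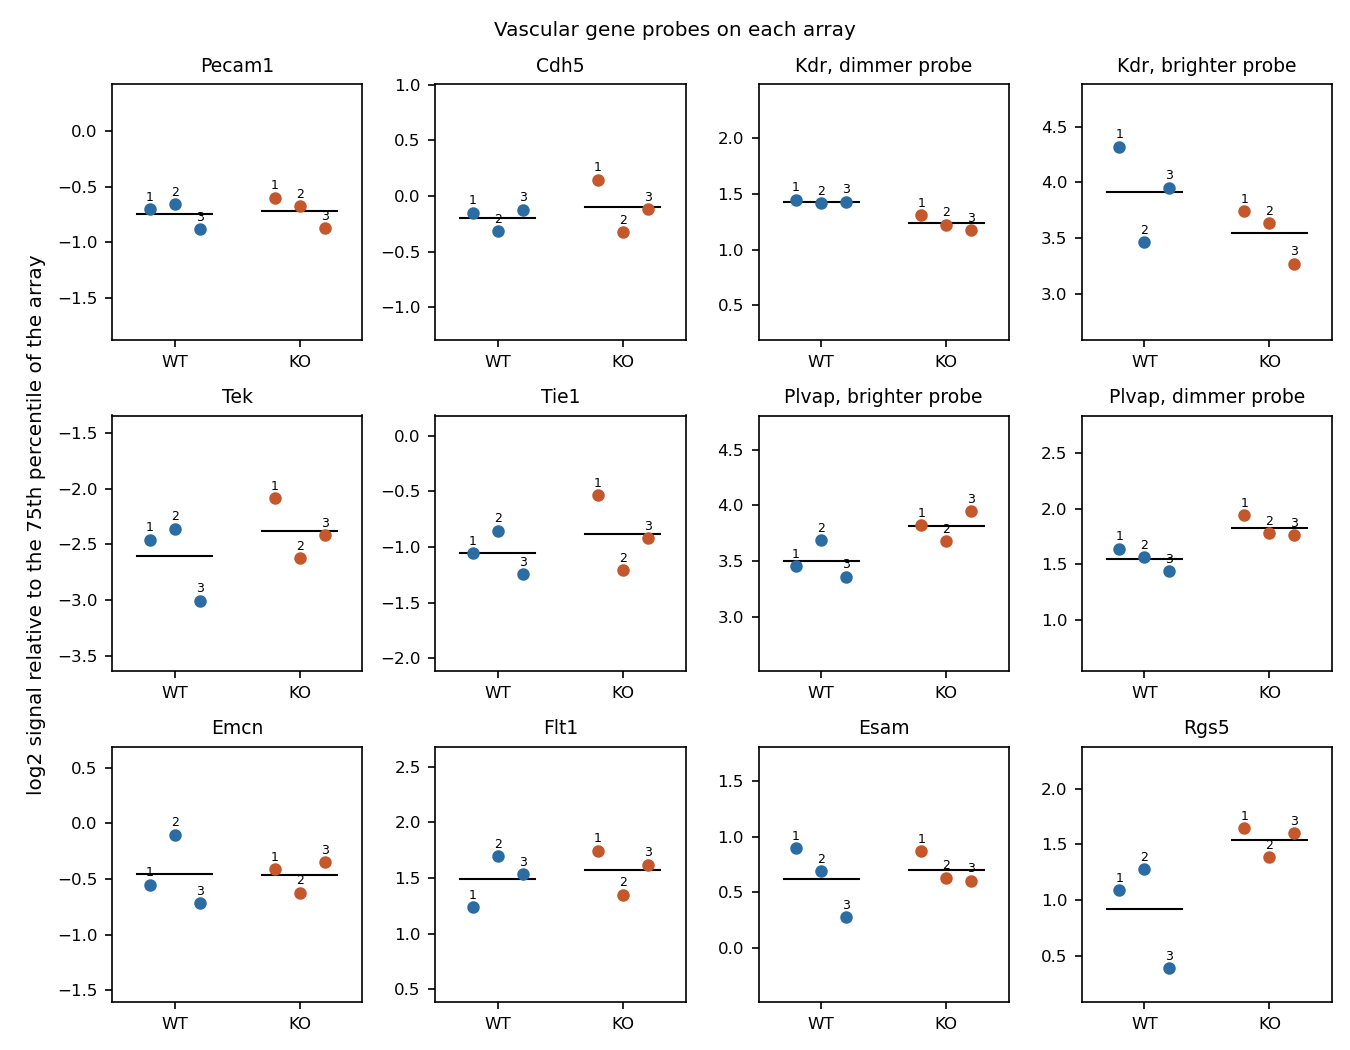
Log2 signal of the 12 vascular gene probes relative to the 75th percentile of the array (vertical axis, the same span in every panel) for WT (blue) and KO (orange) arrays, with the replicate number beside each point and a line at the group mean, n = 3. The Rgs5 points of KO lie above those of WT, those of the dimmer Plvap probe do too, the dimmer Kdr probe has KO below WT, and in the other panels the groups overlap.

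The pericyte gene Rgs5 encodes a regulator of G protein signalling that marks pericytes of small vessels. It read 1.09, 1.28 and 0.39 on WT replicates 1, 2 and 3, and 1.64, 1.38 and 1.60 on the KO replicates. All 3 KO arrays were higher than the highest WT array, the KO arrays lay close together, and WT replicate 3 stood well below the other WT arrays. The log2 fold change was 0.62 ± 0.24 (95% interval 0.06 to 1.19), a ratio of 1.54 with an interval from 1.04 to 2.29. Its unadjusted p in limma was 0.0358 and its adjusted p 0.369, so it did not pass the threshold. Without WT replicate 3 the value was 0.36, and slide row 1 alone, which holds replicates 1 and 3 of each group, gave 0.88. Over the 18 alternative settings its adjusted p ran from 0.176 to 0.690. With each gene centred on its own mean over the arrays, Rgs5 minus the mean of 8 endothelial genes (all but Kdr) stood at -0.10, -0.04 and -0.61 on WT replicates 1 to 3 and at 0.18, 0.26 and 0.31 on KO replicates 1 to 3. These differences contain the Rgs5 levels themselves, so their lack of overlap is no further support. No share over other genes was computed for such a subtraction.

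Plvap, which encodes the fenestral diaphragm protein, had the next highest fold change. The brighter of its probes read 3.45, 3.69 and 3.36 in WT and 3.82, 3.68 and 3.95 in KO, so that WT replicate 2 and KO replicate 2 nearly coincided and the groups overlapped. The log2 fold change was 0.32 ± 0.14 (95% interval -0.02 to 0.65), with an unadjusted p of 0.0626 and an adjusted p of 0.402 in limma. Its dimmer probe read 1.64, 1.57 and 1.44 in WT and 1.94, 1.78 and 1.76 in KO, with every KO array above every WT array. When each probe was tested alone, the dimmer probe gave 0.28 ± 0.13 (adjusted p = 0.417). Both probes of Plvap therefore had the same sign and a similar size, and they correlated at 0.74 over the 6 arrays. Emcn, which encodes the sialoglycoprotein endomucin of capillary and venous endothelium, read -0.55, -0.10 and -0.72 in WT and -0.41, -0.62 and -0.35 in KO. The highest and the lowest of these 6 were both WT arrays, and the fold change was -0.01 ± 0.19 (adjusted p = 0.992).

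Kdr encodes the main signalling receptor for VEGF and had the lowest fold change of the 10. The brighter of its probes read 4.32, 3.46 and 3.95 in WT and 3.74, 3.63 and 3.27 in KO. WT replicate 1 was the highest array and KO replicate 3 the lowest, but WT replicate 2 lay below 2 of the KO arrays. Its log2 fold change was -0.36 ± 0.24 (95% interval -0.94 to 0.21; adjusted p = 0.529), and -0.16 without WT replicate 1. The dimmer probe, a mean of 10 spots, read 1.45, 1.42 and 1.43 in WT and 1.31, 1.22 and 1.17 in KO. Its WT arrays were nearly level, with an SD of 0.015, and all 3 KO arrays lay below them, giving -0.20 ± 0.11 (adjusted p = 0.494 with each probe alone). With median centring the difference of the dimmer probe was -0.04 and its groups overlapped. Before scaling, the brighter Kdr probe ran only from 2887 to 3429 intensity units, a 1.19-fold range, while the 75th percentile of the arrays ran over a 1.83-fold range and the other 11 vascular probes over 1.79-fold to 3.65-fold ranges. The highest scaled value of the brighter Kdr probe was on the array with the lowest percentile, WT replicate 1. The part of the scaling in the Kdr values was not tested.

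Flt1 encodes the other VEGF receptor of blood endothelium, which binds VEGF tightly and also exists as a soluble form. It read 1.24, 1.70 and 1.54 in WT and 1.75, 1.35 and 1.62 in KO. The lowest array was WT replicate 1 and the next lowest KO replicate 2, so the groups overlapped throughout, and the fold change was 0.08 ± 0.17 (adjusted p = 0.842). The difference between Kdr and Flt1 in their fold changes was not tested.

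Both Tie receptor genes had fold changes above 0 that did not pass the test. Tek, the angiopoietin receptor, read -2.46, -2.36 and -3.01 in WT and -2.09, -2.62 and -2.42 in KO. WT replicate 3 was the lowest and KO replicate 1 the highest, with the other 4 arrays between them, and the fold change was 0.23 ± 0.22 (adjusted p = 0.642). It was 0.02 with normexp background correction and 0.03 without WT replicate 3. Tie1 read -1.05, -0.85 and -1.24 in WT and -0.53, -1.21 and -0.92 in KO. Here too KO replicate 1 was the highest and WT replicate 3 the lowest, and the fold change of 0.16 ± 0.20 (adjusted p = 0.719) turned to -0.01 without KO replicate 1.

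Genes of endothelial cell junctions had log2 fold changes of 0.10 or less. Pecam1, an adhesion molecule at contacts between endothelial cells, read -0.70, -0.65 and -0.88 in WT and -0.60, -0.67 and -0.87 in KO. Replicate 3 was the lowest array in both groups, and the fold change was 0.03 ± 0.13 (95% interval -0.29 to 0.35; adjusted p = 0.927). Cdh5, which encodes VE-cadherin of the adherens junction, read -0.15, -0.32 and -0.12 in WT and 0.15, -0.33 and -0.12 in KO. Only KO replicate 1 stood apart from the rest, and the fold change was 0.10 ± 0.16 (adjusted p = 0.782). Esam, an adhesion molecule of endothelial tight junctions, read 0.90, 0.69 and 0.28 in WT and 0.87, 0.63 and 0.61 in KO. WT replicate 3 was again the lowest, and the fold change was 0.08 ± 0.19 (adjusted p = 0.852). The signs of Pecam1, Cdh5 and Esam each turned when 1 array was left out.

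**Figure D2:**
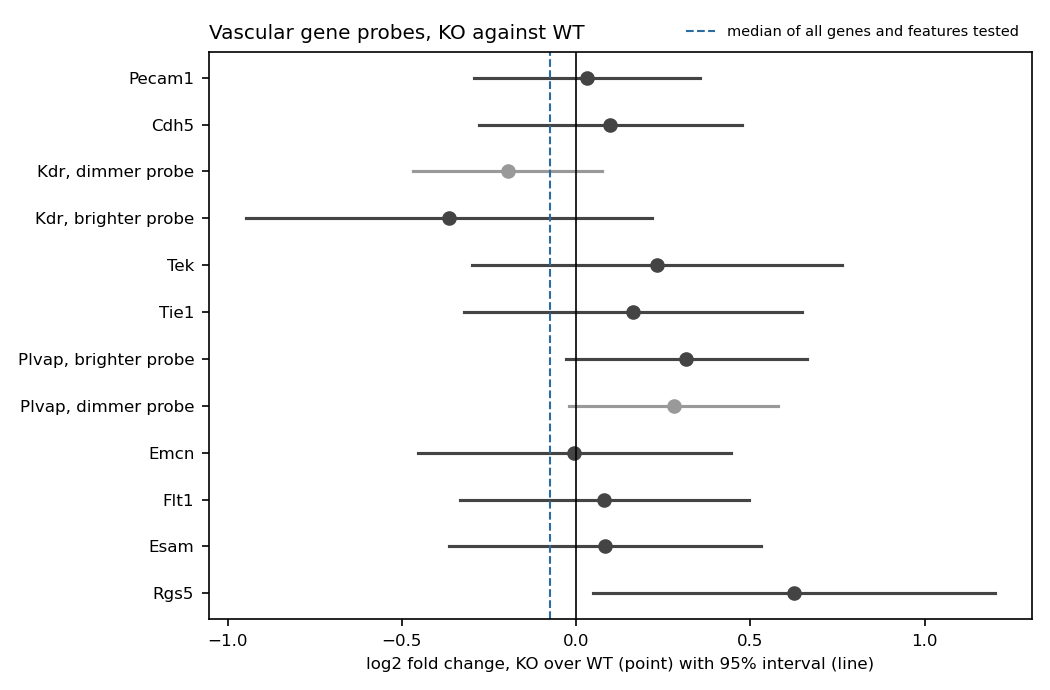
Log2 fold change of each vascular probe, KO over WT (horizontal axis, point), with its 95% interval (line) from limma with each probe tested alone. Black marks the probe used for the gene and grey the dimmer probe of Kdr and Plvap, and the dashed line is the median of all genes and features tested. The interval of Rgs5 alone excludes 0.

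The spread within a genotype was wider than most of these differences. The SD of the 10 genes had a median of 0.27 among WT arrays and 0.17 among KO arrays, and it was larger in WT for 7 of 10. Over all tested, the medians were 0.23 and 0.15, and 69.7% had the larger SD in WT. Part of the spread was shared between genes. Among the 9 genes without Kdr, WT replicate 3 was the lowest array for 7 and KO replicate 1 the highest for 6. Each gene was centred on its mean over the 6 arrays, and the centred levels of all 10 averaged 0.01, 0.05 and -0.25 on WT replicates 1 to 3 and 0.23, -0.08 and 0.04 on KO replicates 1 to 3. The means of KO and WT differed by 0.13, less than the pooled SD of 0.16, and without Kdr by 0.18 with a pooled SD of 0.18. Over the 6 arrays the 45 pairs of all 10 genes had a median Pearson correlation of 0.41. Of these, 21 of 45 were above 0.5, and the lowest was -0.80. The 36 pairs of the 9 genes without Kdr had a median of 0.55, and 21 of 36 pairs were above 0.5. Leaving out Kdr, which ran otherwise on these same arrays, raises that median by choice, and no share over other gene pairs was computed. All pairs share the scaling of each array, so this is a description. Kdr ran otherwise, with median correlations of -0.28 (brighter probe) and -0.12 (dimmer probe) to the 9, although its probes correlated with each other at 0.69. Before scaling, its brighter probe had a 1.19-fold range and its dimmer probe a 1.79-fold range. The part of the scaling in the Kdr pattern was not tested. The genes outside the list whose levels most resembled the centred mean of the 10 were Ftcd, Pald1, Omp, Rasal1 and Plekhm3, with Pearson correlations of 0.985 to 0.994 over 6 arrays, and 116 of the 15317 genes compared (0.757%) were above 0.9.

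Ligands and partners of the VEGF and angiopoietin receptors were examined in a list of 15 genes, all of which passed the filter on dim probes. Limma called 0 of 15, while 4 were higher in KO at an unadjusted p under 0.05 (3.99% of all tested) and 0 were lower (8.82% of all tested). Angpt2, a context-dependent ligand of the Tek receptor, read -1.01, -0.59 and -1.03 in WT and 0.01, -0.23 and -0.37 in KO. Every KO array was above every WT array, with a log2 fold change of 0.68 ± 0.17 (adjusted p = 0.289). This fold change stayed between 0.49 and 0.84 over the 18 alternatives. Angpt1, the activating ligand of the same receptor, read 3.08, 3.05 and 2.16 in WT and 3.69, 3.04 and 3.51 in KO, with overlap and a fold change of 0.65 ± 0.29 (adjusted p = 0.401), which was 0.35 without WT replicate 3. Ptprb, the phosphatase that opposes Tek signalling in endothelium, differed by 0.44 ± 0.17 (adjusted p = 0.377). Vegfc, a ligand of the lymphatic VEGF receptor, differed by 0.51 ± 0.19 (adjusted p = 0.367), and its WT replicate 2 overlapped with KO. The receptor gene itself, Flt4, gave 0.83 ± 0.27 (adjusted p = 0.333) from a dim probe that was well above background on 5 of 6 arrays, and -0.03 with normexp background correction. Vegfa, the principal ligand of Kdr and Flt1, gave -0.33 ± 0.22 (adjusted p = 0.531), and from -0.52 to -0.17 over the 18 alternatives. The median of the 15 fold changes was 0.06, with 10 above 0, where 39.3% of all tested were. Vegfa, Angpt1 and Ptprb, and below Epas1, Vtn and Acta2, were picked after their values were seen. The same holds for other genes below that stand outside the naming rule.

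Other endothelial genes showed no common direction. Of 18 tested (of 20 listed) limma called 0, 1 was higher at an unadjusted p under 0.05 and 0 were lower, and the median was 0.04 with 10 above 0. Over all tested, 3.99% were higher and 8.82% lower at that p, and 39.3% were above 0. That 1 gene was Ece1, which encodes the protease that makes endothelin, at 0.44 ± 0.15 (adjusted p = 0.347), and all its KO arrays were above its WT arrays. Vwf, the endothelial clotting factor that platelets also carry, gave 0.59 ± 0.25 (adjusted p = 0.393), with 0.30 after normexp background correction and 1.0 with slide row 1 alone. It read -1.91, -1.20 and -1.85 in WT and -0.77, -1.44 and -0.99 in KO. KO replicate 1, its highest array, was also the highest for the platelet list given below. On WT replicate 3 that list averaged 0.03, its next highest value, while Vwf read -1.85. The part of platelets in the Vwf values was not tested. Mmrn2, an endothelial matrix protein, differed by 0.27 ± 0.13 (adjusted p = 0.431) without overlap. Of the 18, 3 lay wholly higher in KO (7.23% of all tested) and 2 wholly lower (13.4% of all tested). Those 2 were Egfl7 at -0.21 ± 0.12 and Cd93 at -0.20 ± 0.13. For the 7 genes of blood-brain barrier endothelium, a barrier type that fenestrated vessels lack, 0 were called and 0 reached an unadjusted p under 0.05, with a median of 0.05. Among them the drug efflux pump gene Abcg2 gave 0.16 ± 0.12, the tight junction gene Ocln 0.10 ± 0.13 and the organic anion transporter gene Slco1a4 -0.19 ± 0.17 (adjusted p = 0.564 to 0.734).

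Transcription factors of endothelium went both ways. Of the 14 tested limma called 0, with 4 higher and 2 lower at an unadjusted p under 0.05, a median of 0.08 and 8 above 0. The shares over all tested were 3.99% higher and 8.82% lower at that p, and 39.3% above 0. Klf2, which responds to blood flow, read 0.75, 0.43 and 0.89 in WT and 1.43, 1.1 and 1.27 in KO. The groups did not overlap, and the fold change was 0.58 ± 0.17 (adjusted p = 0.311), between 0.45 and 0.74 over the 18 alternatives. Epas1, the hypoxia-inducible factor abundant in endothelium, gave 0.42 ± 0.16 (adjusted p = 0.363), also without overlap, and 0.17 when the probes of the gene were averaged. Sox17, an arterial factor, read -2.78, -3.11 and -3.57 in WT and -3.57, -4.31 and -4.15 in KO, a fold change of -0.85 ± 0.27 (adjusted p = 0.330) that was -0.40 with normexp background correction. Klf4 had the lowest fold change of the vascular lists, -1.49 ± 0.60 (adjusted p = 0.379). It read -1.24, 0.70 and 1.34 in WT and -1.23, -1.28 and -1.15 in KO, so WT replicate 1 lay among the KO arrays. The ETS factor gene Erg gave 0.72 ± 0.23 (adjusted p = 0.333) from a probe well above background on 5 of 6 arrays, and 0.01 with normexp background correction. Of 9 Notch pathway genes limma called 0, 2 were above 0 (39.3% of all tested) and the median was -0.08. Hes1, a Notch target that many other cells of the gland also express, read -2.15, -2.81 and -2.85 in WT and -3.37, -3.23 and -3.22 in KO, a fold change of -0.67 ± 0.21 (adjusted p = 0.330) without overlap, and -0.15 with the authors' value table. The arterial ligand gene Dll4 gave -0.35 ± 0.26 and the endothelial receptor gene Notch4 -0.08 ± 0.12 (adjusted p = 0.567 and 0.754). Over the 18 alternatives, the median of each of the 7 wider vascular lists took both signs.

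**Figure D3:**
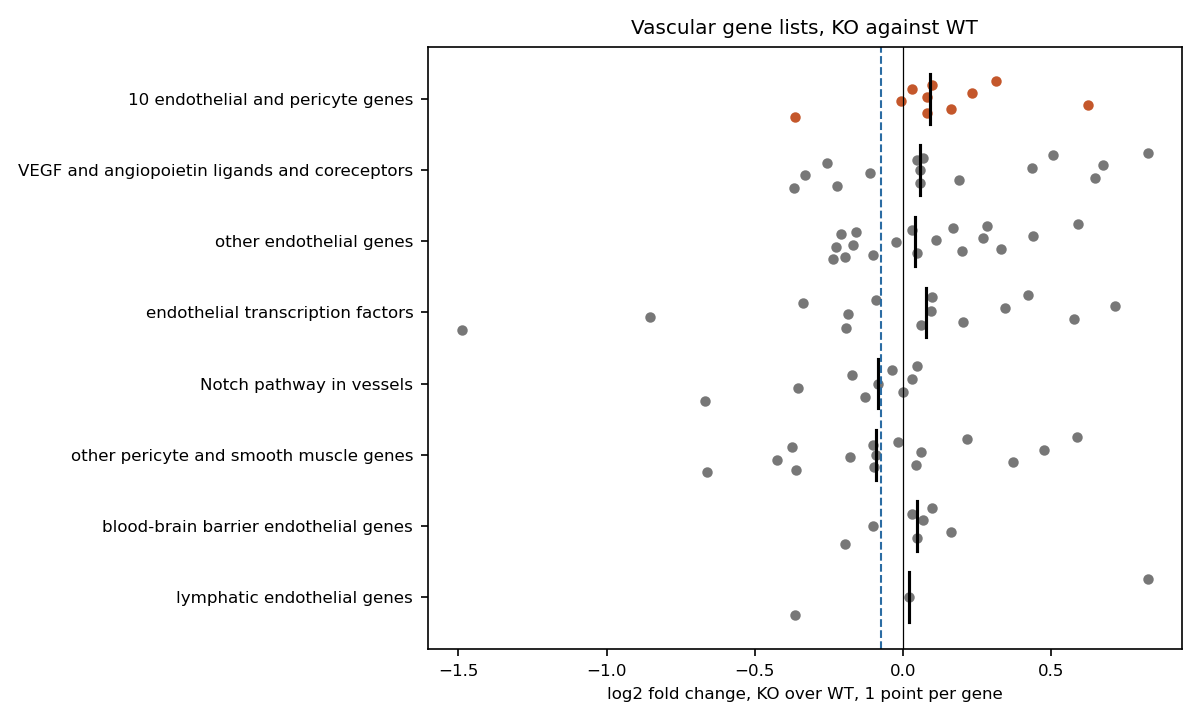
Log2 fold change, KO over WT (horizontal axis), of each tested gene (points) in 8 vascular lists (rows), with the list's median as a thick black mark, 0 as a solid line and the median of all genes and features tested as a dashed line. All medians lie between -0.09 and 0.09, while single genes run from -1.49 (Klf4) to 0.83 (Flt4).

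Pericyte and smooth muscle genes other than Rgs5 lay on both sides of 0. Of 15 tested (of 16 listed) limma called 0, with 1 higher and 2 lower at an unadjusted p under 0.05, a median of -0.09 and 6 above 0. Among all tested, 3.99% were higher and 8.82% lower at that p, and 39.3% were above 0. Abcc9, the channel subunit that pericytes carry, read -2.0, -1.63 and -2.0 in WT and -1.23, -1.53 and -1.43 in KO. Every KO array was above every WT array, with a fold change of 0.48 ± 0.16 (adjusted p = 0.338), and 0.17 with normexp background correction. Vtn, also enriched in pericytes, gave 0.37 ± 0.16 (adjusted p = 0.394) without overlap. Other pericyte genes went both ways. Pdgfrb gave -0.18 ± 0.13, Cspg4 -0.10 ± 0.12 and Higd1b -0.02 ± 0.18, while Kcnj8 gave 0.22 ± 0.17. Among genes of contractile smooth muscle, Tagln read 2.18, 1.82 and 2.33 in WT and 1.67, 1.38 and 1.31 in KO. Its fold change was -0.66 ± 0.18 (adjusted p = 0.301) without overlap. Acta2, smooth muscle actin, gave -0.42 ± 0.20 (adjusted p = 0.417, and -0.64 without KO replicate 1), with KO replicate 1 at the level of the WT arrays. Des gave -0.37 ± 0.20. The smooth muscle gene Myh11 went the other way at 0.59 ± 0.77, from a probe well above background on 3 of 6 arrays. Mcam, an adhesion molecule of vessel walls, gave -0.36 ± 0.14 (adjusted p = 0.377; -0.20 with median centring), and its KO arrays were all below its WT arrays. Fibroblast genes, which smooth muscle and pericyte preparations also carry, were on the same side as Tagln. Their 5 of 5 tested genes had fold changes below 0 with a median of -0.43, 3 of them without overlap (13.4% of all tested lay wholly lower). Their mean centred level was 0.13 to 0.28 on WT arrays and -0.37 to -0.08 on KO arrays. Col1a1, a fibroblast collagen, gave -0.83 ± 0.23 (adjusted p = 0.311). The part of fibroblasts in the values of Tagln, Acta2 and Mcam was not tested.

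Lymphatic endothelial genes were few, with 3 of 5 tested. Limma called 0 of them, and the median was 0.02. Pdpn, a membrane glycoprotein of lymphatic endothelium and of many stromal cells, read 2.04, 1.90 and 2.09 in WT and 1.59, 1.69 and 1.66 in KO, a fold change of -0.36 ± 0.12 (adjusted p = 0.333) without overlap. Prox1, the factor that defines lymphatic endothelium, gave 0.02 ± 0.18 (adjusted p = 0.962). Flt4, the third, is described above with the VEGF receptors' partners.

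Markers of other cells set 2 arrays apart, WT replicate 3 and KO replicate 1, the same arrays that were lowest and highest for most vascular genes. On WT replicate 3 the 4 of 4 tested neutrophil genes averaged a centred level of 2.64, against -1.18 to -0.16 on the other arrays, and the 4 of 4 genes of dividing cells averaged 2.35, against -1.46 to 0.73. The list averages of the groups stood apart in both lists on the other arrays too, although limma called 0 of their genes. Over all tested, 13.4% lay wholly lower in KO. The dividing cell genes averaged higher on each WT array (lowest -0.13) than on any KO array (highest -0.69), 3 of 4 without overlap, with a median fold change of -2.04, and -1.44 without WT replicate 3. Ccnb2 among them gave -1.59 ± 0.39 (adjusted p = 0.271). The neutrophil genes had a median of -1.59, 3 of 4 without overlap, and -0.59 without WT replicate 3. The gap was narrow for Camp (lowest WT array -1.51, highest KO array -1.53) and S100a9 (0.25 and 0.20), and Ngp overlapped. Schwann cell genes, 5 of 5 tested, averaged 0.75 on that array and at most 0.13 elsewhere. On KO replicate 1 the 5 of 5 platelet genes averaged 1.24, against -0.55 to 0.03, and the 4 erythroid genes tested averaged 0.65, against -0.82 to 0.44. Some genes did not follow these averages. Itga2b of platelets read -3.60 on KO replicate 1 and -2.80 on WT replicate 2. Hba-a2 of erythroid cells read 8.94 on KO replicate 1 and 9.44 on WT replicate 1. Macrophage genes, 5 of 6 tested, had group ranges of -0.16 to -0.01 in WT and -0.05 to 0.20 in KO. Single markers with the pattern of their lists were S100a8 (neutrophils), at 1.24 on WT replicate 3 and -2.82 to -1.47 elsewhere, and Pmp22 (Schwann cells), at 2.06 and 0.11 to 0.50. Ccnb2 (dividing cells) was at 1.23 on that array and -1.47 to 0.10 elsewhere. Pf4 (platelets) was at 0.49 on KO replicate 1 and -1.26 to -0.82 elsewhere. Without WT replicate 3 the median fold change of the 10 vascular genes was 0.05 with 6 above 0, and without KO replicate 1 it was -0.01 with 4 above 0. The part of these cells in the vascular values was not tested.

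**Figure D4:**
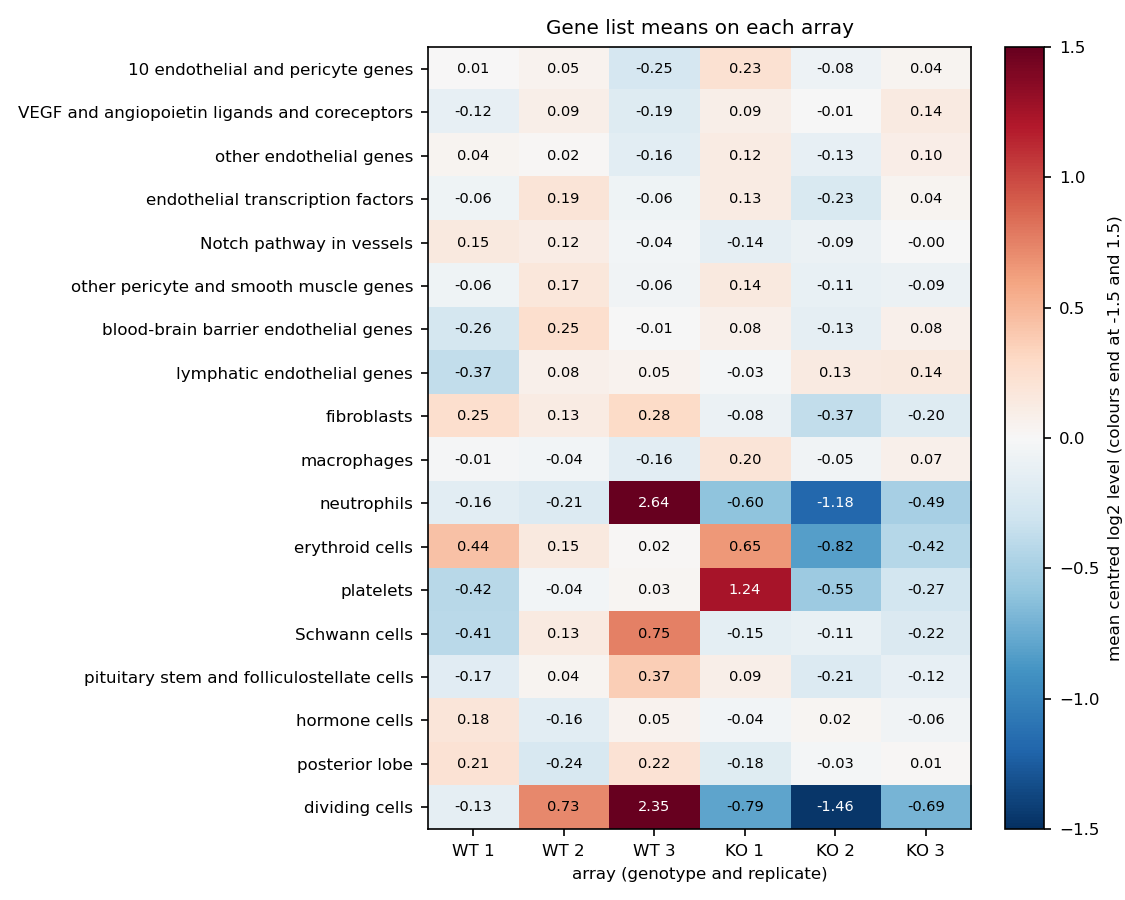
Mean centred log2 level of each gene list (rows) on each of the 6 arrays (columns), each gene being centred on its own mean over the arrays. The vascular rows span -0.37 to 0.25, while neutrophil and dividing cell genes reach 2.64 and 2.35 on WT replicate 3 and platelet genes 1.24 on KO replicate 1.

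The 9 hormone-cell and lineage genes had a median fold change of -0.01 and group ranges of -0.16 to 0.18 in WT and -0.06 to 0.02 in KO. Pitx1, a lineage factor of the anterior pituitary, gave 0.23 ± 0.15 (adjusted p = 0.526). Among 5 stem and folliculostellate cell genes the median was -0.08, and Aldh1a1 gave -0.27 ± 0.19 (adjusted p = 0.548). Posterior lobe genes had a median of -0.28 over 5, which was -0.06 without WT replicate 1 and 0.12 with the authors' value table, while Rax, a factor of pituicytes, gave 0.53 ± 0.17 (adjusted p = 0.338). Mrc1, a receptor of perivascular macrophages, gave 0.60 ± 0.19 (adjusted p = 0.333) without overlap, but 0.14 with normexp background correction. The haemoglobin gene Hba-a2 gave -0.42 ± 0.21 (adjusted p = 0.439). Over the 18 alternatives Mrc1 ran from 0.14 to 0.78, Hba-a2 from -0.59 to -0.07, Aldh1a1 from -0.41 to -0.09 and Pitx1 from 0.12 to 0.39.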

How the data were processed

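RNA of 6 pituitaries was labelled with Cy3 and hybridised to 6 one-colour Agilent arrays on 1 slide, read in 1 scan, per the labels and the file headers. Each deposited spot file gives the processed signal as an intensity, from which Agilent Feature Extraction 11.0.1.1 had taken the background without scaling between arrays, per the file headers. The authors' value table holds deposited log2 values of 29154 spots (26625 probes) with column medians of 8.25 to 8.26. Matched by feature number, each column correlated at 0.997 or more with the median brightness (log2) on that array's own file, which settles its scale and direction. Its normalization is unknown. The submitters' processing notes name limma.

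Control and outlier spots were left out, and log2 signals were set relative to each array's 75th percentile over the remaining spots. Spots of a probe were averaged. A probe had to be well above background on 3 arrays or more (36738 of 55681 were), and the brightest probe stood for a gene. Symbols came from RefSeq accessions of GRCm38.p6 (27656 probes, 20972 symbols), and 26889 genes and features were tested. KO and WT were compared with limma 3.58.1 in R 4.3.3 (lmFit and eBayes, two-sided, Benjamini-Hochberg adjustment over all tested), and a call needed an adjusted p under 0.05. Each intensity and log2 value as deposited was used unchanged before these steps. The p-values measure the spread between single animals, 3 per group.

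The members, lists, tests and naming rule were chosen with earlier results of these data known. The text names the 10 genes, Kdm4a, up to 3 genes of each vascular list and 1 of each marker list with the smallest unadjusted p, and the 5 genes most correlated with the mean of the 10. Vegfa, Angpt1, Ptprb, Epas1, Vtn and Acta2 were added outside this rule, after their values were seen. So were Klf4, Pdgfrb, Cspg4, Higd1b, Kcnj8, Des, Myh11, Egfl7, Cd93, Itga2b, Camp, S100a9 and Ngp. Flt4 and Cldn5 each stand in 2 lists. Listed genes that had no probe or did not pass the filter included Calcrl, Cav1, Cnn1, Lyve1, Ccl21a and Cd68. Replicate numbers were checked for pairing, and the highest correlated deviations were not between same-numbered arrays. With 3 arrays per group this check cannot exclude pairing, and the labels used here do not give the litters. The fit was also run on simulated independent values with 200 planted changes of 2 log2 units. Those changes were larger than any fold change of the 10 genes, so the run does not test changes of that smaller size.

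Each alternative replaced a step and kept the rest, except that normexp also takes another signal column and the authors' table also holds fewer features. For the values they were normexp background correction (offset 50, on median spot brightness), quantile normalization, median centring, or the authors' table. For the probes, no filter, a filter on all 6 arrays, averaging over the probes of a gene, or testing probes singly was tried. For the fit there were a variance trend with robust fitting, the replicate number or the slide row as a block, slide row 1 alone, an adjusted p under 0.1, and leaving out each array.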

Additional observations from a re-analysis of the deposited data

How the results depend on the processing

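No vascular gene of the 10 was called under any of the 18 alternatives or at an adjusted p under 0.1. Over all genes limma called 24 with normexp background correction, 16 with median centring, 27 with the authors' value table, 12 with the filter asking for all 6 arrays, 28 with a variance trend and robust fitting, 15 at an adjusted p under 0.1, 0 to 1 with 1 array left out, and 0 otherwise. The median fold change of the 10 was 0.25 with median centring, 0.27 with slide row 1 alone, and -0.01 to 0.20 with 1 array left out. Median centring moved the median of all tested from -0.07 to 0.09, a shift common to every gene. The median of the 10 stood 0.16 above that of all tested, 0.05 with the authors' value table, 0.09 with quantile normalization, 0.07 without KO replicate 1 and 0.34 with slide row 1 alone. Of unadjusted p-values under 0.05, 68.9% were lower in KO, against 42.9% with quantile normalization, 24.7% with median centring and 46.8% with the authors' value table. Signs turned with normexp for Pecam1 (-0.00569), Flt4 (-0.0317) and Prox1 (-0.0822), with quantile normalization for Emcn (0.0138), with median centring for Emcn (0.16) and Notch4 (0.0789), with the authors' value table for Flt1 (-0.00326), and with slide row 1 alone for Emcn (0.25) and Dll4 (0.0478). With 1 array left out, fold changes ran from -0.0364 to 0.11 for Pecam1, -0.0243 to 0.21 for Cdh5, -0.0136 to 0.32 for Tie1, -0.14 to 0.17 for Emcn, -0.0440 to 0.19 for Flt1, -0.0888 to 0.22 for Esam, -0.11 to 0.14 for Prox1 and -0.0624 to 0.81 for Pf4. The causes were not tested. Same-numbered arrays had correlated deviations of 0.15, -0.18 and -0.08, and the replicate block gave 0 calls over all genes, 0 of the 10 and a lowest adjusted p of 0.472 among them, with 2850 unadjusted p-values under 0.05 against 3443. Slide row 2 holds 1 array per group and was not fitted alone. No counting depth applies to arrays, and the dim probes of Flt4 and Erg were well above background on 5 of 6 arrays.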
